A study of Mus musculus with 20 samples.

Results

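The nuclear-encoded subunits of the oxidative phosphorylation (OXPHOS) complexes were followed in the cecum of 20 C57BL/6 mice. Members were all protein-coding genes of GENCODE whose symbol begins with Nduf and one of a, b, c, s, or v before a digit, is Sdha, Sdhb, Sdhc, or Sdhd, or begins with Uqcr, Cox4 to Cox8, or Atp5. The rule matched 89 genes, of which 86 are among the 19887 genes of the count table: 36 of complex I, 4 of complex II, 8 of complex III, 19 of complex IV, and 19 of complex V. Ndufa4 and Ndufa4l2, whose names recall complex I, were placed in complex IV by their role, and Atp5if1, an inhibitor of the ATP synthase, was kept with complex V. Of the members, 84 had enough counts to be tested, and Cox6a2 and Cox5b-ps did not.

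All mice received the Total Western Diet (TWD), a rodent diet with the nutrient levels of American intakes, for 6 weeks from 3 weeks of age. Groups of 5 then continued on the TWD alone (0% RPS) or with 2, 5, or 10% raw potato starch (RPS), a starch that largely escapes digestion and is fermented in the cecum, for 3 weeks. RNA of the cecum was measured by RNASeq as read counts per gene. The comparisons ask whether the amount of RPS changed the subunit transcripts, beside the share of counts from the mitochondrial genome.

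OXPHOS takes place in the inner mitochondrial membrane. Complexes I, III, and IV pump protons while passing electrons from NADH to oxygen, complex II feeds in electrons from succinate and pumps none, and complex V uses the proton gradient to make ATP. Complex II is built from nuclear genes alone, whereas the other complexes also hold subunits encoded by mitochondrial DNA (the mt- genes). Colonocytes are known to oxidize butyrate, a product of starch fermentation, in their mitochondria.

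Total counts per mouse ranged from 14967798 to 42687283, and values per mouse are given as CPM, the counts scaled to library size, after TMM scaling. A tested member had a median over genes of 5035 counts per mouse. Epithelial markers were high in every mouse, with a summed level of the list between 12350 and 18230 CPM. The mice differed in the share of mt- counts, which was at most 11.5% in 17 libraries and stood apart at 13.02% in 0% RPS mouse 5, 13.8% in 2% RPS mouse 3, and 15.4% in 5% RPS mouse 4. No mouse fed 10% RPS was among them. The sums over all members and the medians of the members against 0% RPS are given with and without these 3 libraries. So are the sums of each complex and the counts of members called at 10% RPS. As the tissue was measured in bulk, fewer cells of a type and less RNA per cell cannot be told apart.

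The members differed widely in level. In the 0% RPS mice, the median over tested members of CPM per kb of canonical transcript was 112 in complex I, 156 in complex II, 184 in complex III, 262 in complex IV, and 298 in complex V. The highest levels per kb were those of Cox6c, a small complex IV subunit, at 1055, and of Atp5f1b, the catalytic beta subunit of the ATP synthase, at 1032. Atp5f1a, the alpha subunit that forms the F1 ring with it, was at 830 CPM per kb. These values divide by 1 transcript per gene, so a gene with a long canonical transcript, such as Ndufb2 at 8.85 CPM per kb, may be placed too low.

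**Figure D1:**
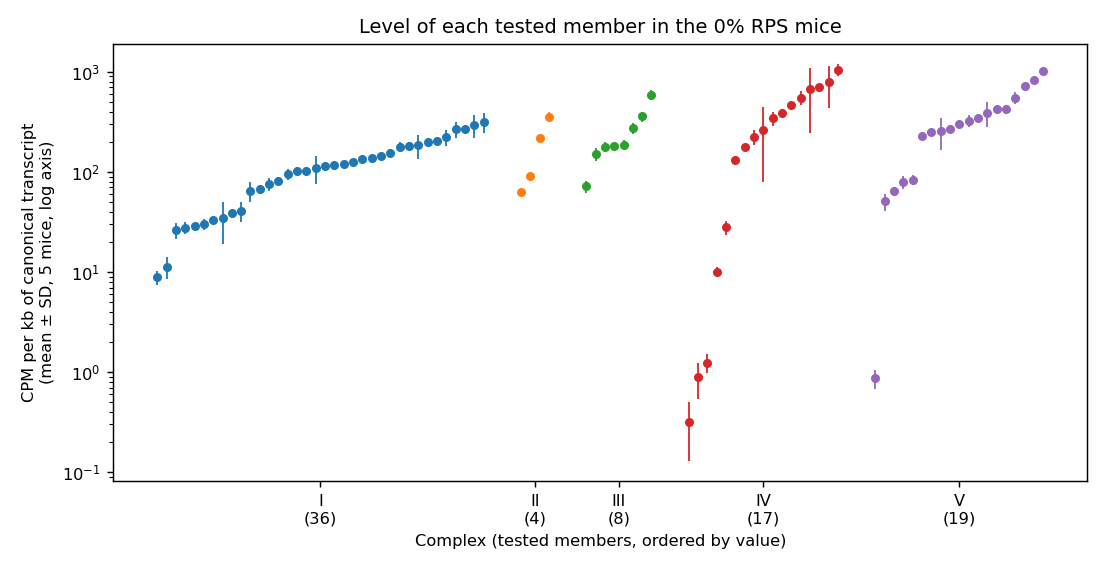
Level of each tested member in the 5 mice fed 0% RPS, as CPM per kb of canonical transcript (mean ± SD, log axis), ordered by value within each complex. The medians of the complexes run from 112 to 298, and a few members of complexes IV and V lie below 2.

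The forms of complex IV subunits known from other tissues were scarce. Cox4i2, the lung form of subunit 4, had 0.943 ± 0.204 CPM (SD, n = 5) in the 0% RPS mice, against 305 ± 27.7 CPM for the ubiquitous Cox4i1. Cox8b, a form of heart and skeletal muscle, had 0.678 ± 0.403 CPM, and Ndufa4l2, a form induced by hypoxia, had 0.856 ± 0.332 CPM. Cox6a2, another muscle form, was at 0 in 19 of the 20 libraries. Cox7a1, known from heart and muscle, was higher at 57.5 ± 3.62 CPM, and Cox6b2, known from testis, had 6.07 ± 0.616 CPM. Of the genes that the rule matched, Cox7b2, Cox8c, and Ndufb11b were not analysed here. The second gene named Atp5po, which overlaps the first on chromosome 16, had 0.458 ± 0.101 CPM, and reads of the pair may have been divided between them. Ndufb4, Ndufs5, and Cox7c had only 11.01, 15.3, and 15.1 CPM, far below their partners in the same complexes. Treatment of reads that map to several places is not given in the sources used here, and its part in these low values was not tested.

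The summed level of each complex was lower in the mice fed RPS. Complex I summed to 4766 ± 290 CPM (SD, n = 5) at 0% RPS, 4108 ± 455 at 2%, 4134 ± 235 at 5%, and 4058 ± 338 at 10%. Complex II summed to 1674 ± 68.8 CPM at 0% RPS, 1469 ± 114 at 2%, 1441 ± 96.5 at 5%, and 1400 ± 81.2 at 10%. In complex II every mouse of every RPS diet lay below every mouse fed 0% RPS. The lowest 0% RPS mouse had 1600 CPM and the highest RPS mouse, one fed 5%, had 1563. Complex III went from 2579 ± 131 to 2152 ± 190 CPM, complex IV from 3937 ± 552 to 3278 ± 385 CPM, and complex V from 9066 ± 364 to 7608 ± 662 CPM between 0 and 10% RPS. At 10% RPS the sums differed from those at 0% by -14.9% in complex I, -16.3% in complex II, -16.6% in complex III, -16.7% in complex IV, and -16.1% in complex V. Over all members the sums differed from 0% RPS by -14.0% at 2%, -14.2% at 5%, and -16.0% at 10% RPS. Without the 3 libraries with high mt- shares these differences were -9.18% at 2%, -11.0% at 5%, and -14.2% at 10% RPS, and at 10% RPS they were -13.2, -16.5, -15.2, -11.5, and -15.2% in complexes I to V. These sums are descriptions with no test. In complexes I, III, IV, and V, 2% RPS mouse 4 lay within the range of the 0% RPS mice, in complexes I and IV so did 10% RPS mouse 4, and in complex IV so did 5% RPS mouse 4.

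**Figure D2:**
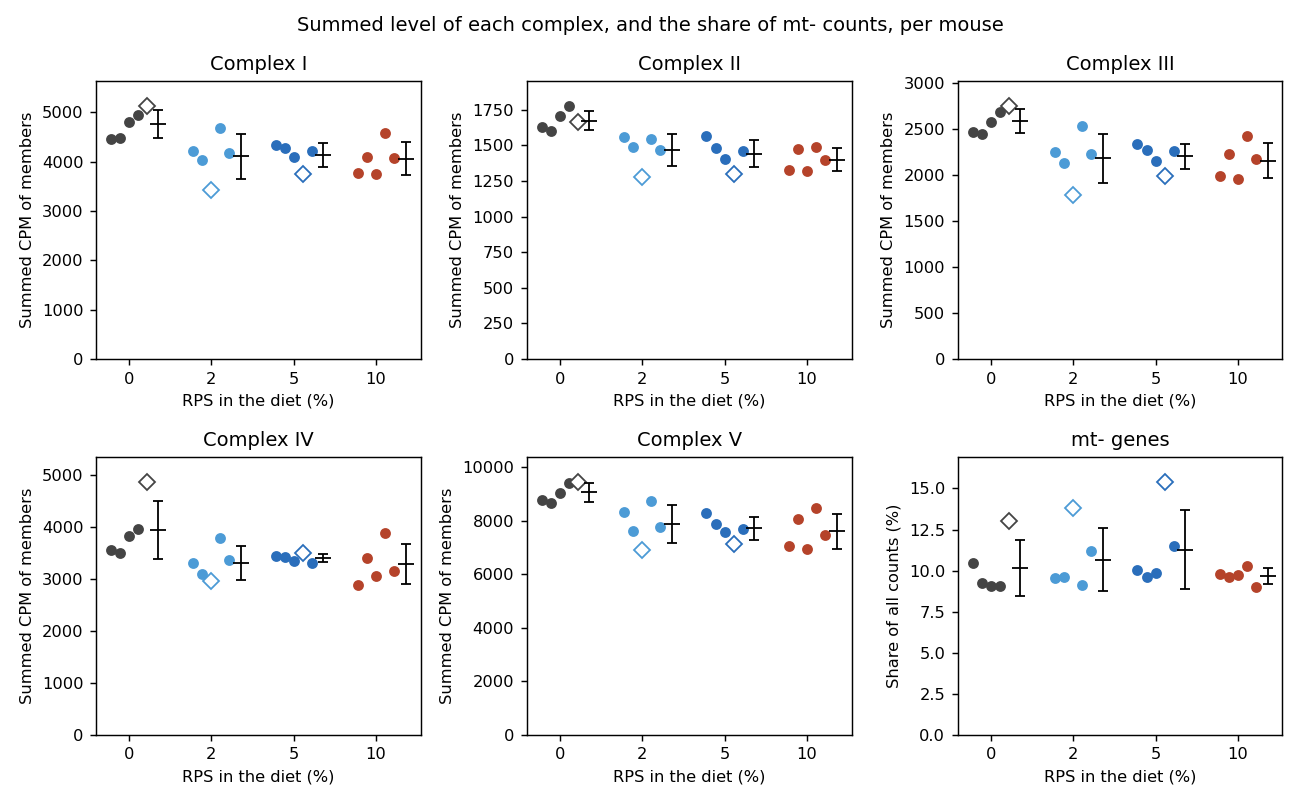
Summed CPM of the members of each complex, and the share of all counts from mt- genes in percent, for each mouse by RPS in the diet. Points are mice, bars are mean ± SD over 5 mice, and open diamonds are the 3 libraries with a mt- share above 12%. The 0% RPS mice are the highest group in each complex, whereas mt- shares overlap between the diets.

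At 10% RPS, 81 of 84 tested members had a negative log2 fold change against 0% RPS, and their median was -0.25, against 0.00 over the 15348 genes tested, of which 49.1% were negative. The medians were -0.24 in complex I, -0.25 in complex II, -0.25 in complex III, -0.26 in complex IV, and -0.24 in complex V. Below an unadjusted p of 0.05 lay 39 members that were lower (18, 3, 5, 4, and 9 in complexes I to V) and 0 that were higher. Over all genes 9.75% were lower by that rule. By edgeR's quasi-likelihood test with an adjusted p of at most 0.05 over all genes, 8 members were lower and 0 higher, beside 1.14% of all genes that were lower. In 13 members every mouse fed 10% RPS lay below every mouse fed 0% RPS, as in 3.2% of all genes. The differences were small, and 0 members passed the adjusted p together with a fold change of 1.5.

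**Figure D3:**
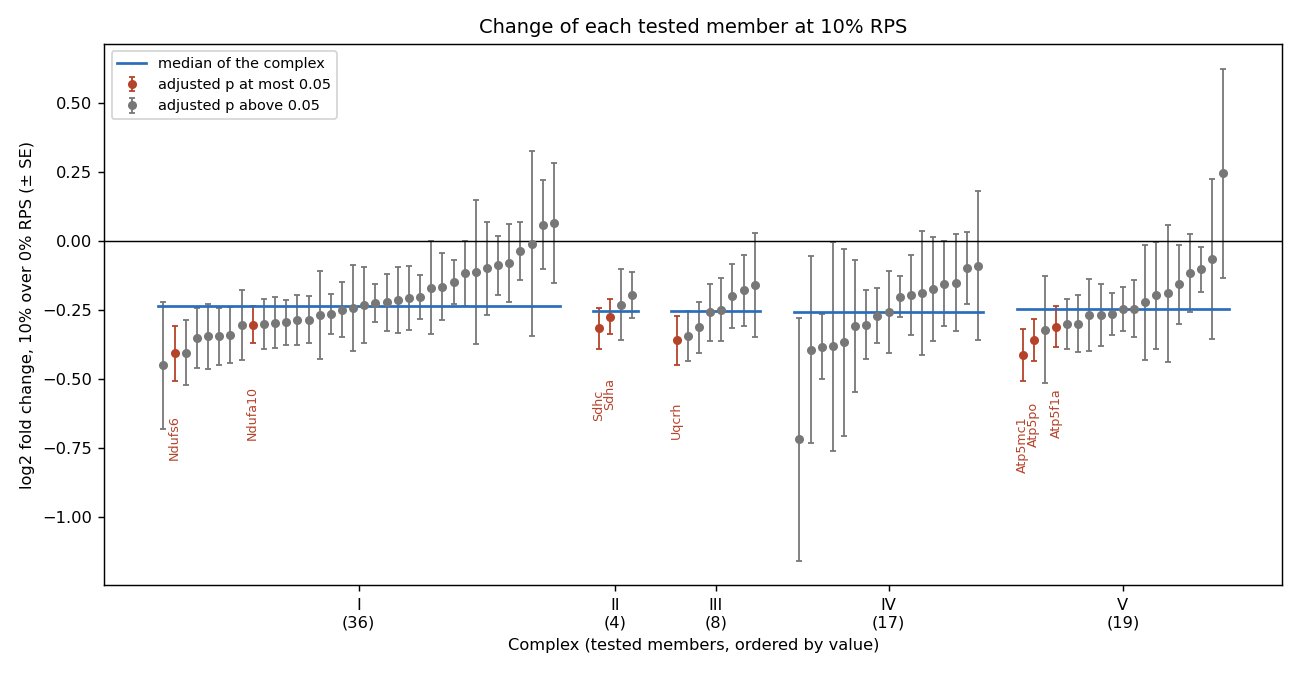
Log2 fold change of each tested member at 10% over 0% RPS (± SE), ordered within complexes I to V, with the number of members in parentheses. Red points are the 8 members with an adjusted p of at most 0.05, and blue lines are the medians of the complexes, which lie between -0.24 and -0.26.

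In complex II, a catalytic subunit and a membrane anchor fell. Sdha, the flavoprotein that oxidizes succinate (chromosome 13, 74469359 to 74498436 of GRCm39), had 647, 656, 670, 686, and 723 CPM in the 0% RPS mice and 545, 579, 528, 586, and 560 CPM in the 10% RPS mice. The groups did not overlap, and Sdha fell by 0.27 on the log2 scale (SE 0.0615, edgeR adjusted p = 0.0295). Sdhc, a membrane anchor (chromosome 1, 170954732 to 170978223), had between 271 and 316 CPM at 0% RPS and between 219 and 254 CPM at 10%. It fell by 0.32 (SE 0.0757, edgeR adjusted p = 0.0366), and the groups did not overlap. Sdhb, the iron-sulfur subunit, had a log2 fold change of -0.20 (SE 0.0839) and Sdhd, the other anchor, one of -0.23 (SE 0.129), and neither passed the test, although the 10% RPS mice lay below the 0% RPS mice for Sdhb.

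In complex V, 3 members of different parts of the enzyme fell. Atp5f1a had 2004, 1966, 2010, 2116, and 2153 CPM at 0% RPS and 1587, 1777, 1516, 1770, and 1617 CPM at 10%. It fell by 0.31 on the log2 scale (SE 0.0735, edgeR adjusted p = 0.0354). Atp5mc1, one of the genes for the c-ring of the rotor, had 235, 281, 246, 249, and 290 CPM at 0% RPS and 188, 197, 171, 222, and 199 CPM at 10%. Its fall of 0.41 (SE 0.0948, edgeR adjusted p = 0.0325) was the largest in complex V. Atp5po, the OSCP subunit of the stalk (chromosome 16, 91720317 to 91728575), had between 159 and 198 CPM at 0% RPS and between 121 and 147 CPM at 10%. It fell by 0.36 (SE 0.0759) and had the lowest adjusted p of all members, 0.0267 by edgeR. None of the 3 genes overlapped between these diets. Atp5f1b, at 1988 ± 128 and 1677 ± 148 CPM (SD, n = 5), differed by -0.25 on the log2 scale (edgeR adjusted p = 0.0993). Atp5if1, which blocks ATP hydrolysis by the enzyme, had -0.10 (SE 0.0813), and the second Atp5po gene had the only positive value of complex V, 0.25 with an SE of 0.378.

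In complex I, Ndufa10 and Ndufs6 fell. Ndufa10, an accessory subunit (chromosome 1, 92361375 to 92401613), had 210, 199, 201, 226, and 233 CPM at 0% RPS and 172, 179, 156, 193, and 167 CPM at 10%. It fell by 0.30 on the log2 scale (SE 0.0676, edgeR adjusted p = 0.0289). Ndufs6, a zinc-binding accessory subunit (chromosome 13, 73464968 to 73476661), had between 80.3 and 125 CPM at 0% RPS and between 65.7 and 79.9 CPM at 10%, and it fell by 0.41 (SE 0.0997, edgeR adjusted p = 0.0405). The groups did not overlap for either gene. In 7 of the 8 called members, all but Sdhc, the highest value was that of 0% RPS mouse 5. The core subunits Ndufs1 and Ndufv1 did not pass the test, with log2 fold changes of -0.21 and -0.20. Ndufa9 and Ndufb8 had -0.25 and -0.21, the lowest value was that of Ndufa13 (-0.45, SE 0.23), and the highest that of Ndufb4 (0.06, SE 0.216).

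In complex III, Uqcrh, the hinge protein (chromosome 4, 115923314 to 115932296), fell by 0.36 on the log2 scale (SE 0.0875, edgeR adjusted p = 0.0392). It had between 432 and 597 CPM at 0% RPS and between 367 and 447 CPM at 10%, and the diets overlapped only through 10% RPS mouse 4. The core protein Uqcrc1 had -0.31 with an edgeR adjusted p of 0.0737, and Uqcrc2 had -0.20. Uqcrfs1, the Rieske iron-sulfur protein, had -0.25, and Uqcr10 the highest value of the complex, -0.16 (SE 0.187). In complex IV 0 members passed the edgeR test, 4 lay below an unadjusted p of 0.05, and 1 passed DESeq2's Wald test, which called 2.85% of the genes it fitted lower. Cox4i1 had -0.27, Cox5a -0.38 (SE 0.117, edgeR adjusted p = 0.0849), Cox6b1 -0.30, Cox7a2 -0.19, and Cox7a2l -0.20. The scarce or restricted forms had -0.09 for Cox4i2, -0.72 for Cox8b (SE 0.439), -0.39 for Ndufa4l2, -0.15 for Cox6b2, and -0.26 for Cox7a1, all short of the test. Cox5b had -0.38, with an SE of 0.379. In 0% RPS mouse 5 it had 528 CPM, and in its 4 diet mates between 134 and 196 CPM.

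**Figure D4:**
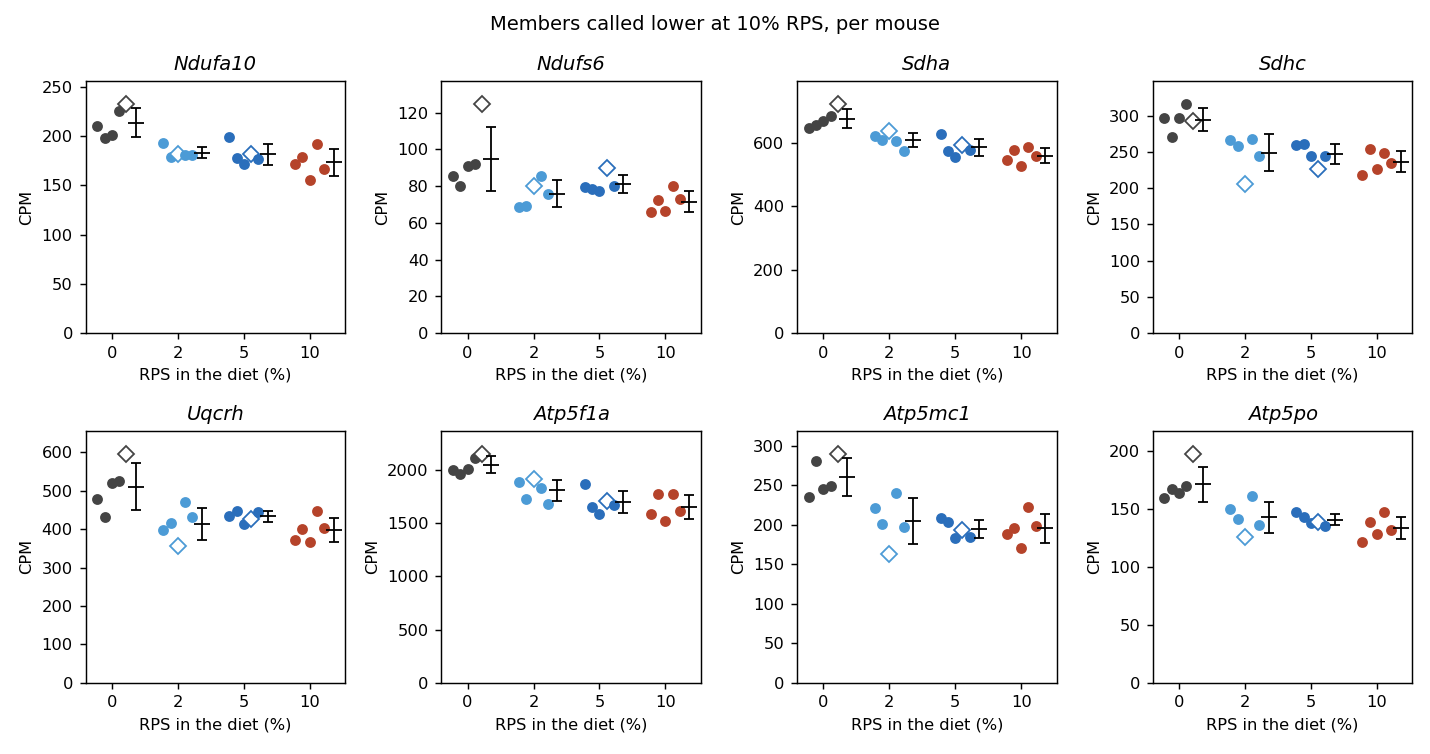
CPM of the 8 members called lower at 10% RPS in each mouse, by RPS in the diet. Bars are mean ± SD over 5 mice and open diamonds the 3 libraries with a mt- share above 12%. All but Uqcrh have every 10% RPS mouse below every 0% RPS mouse.

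The number of members called at 10% RPS rested on single mice. It was 0 without 0% RPS mouse 3, 4, or 5 or 10% RPS mouse 1, 2, 3, or 5, in fits that called between 0.0713 and 0.434% of all genes lower. It was 21 without 10% RPS mouse 4, beside 2.15% of all genes, 17 without 2% RPS mouse 3, which enters only the shared spread, beside 1.6%, and 13 without 0% RPS mouse 2, beside 1.76%. Without any other mouse it lay between 5 and 10. The number over all genes thus moved with that of the members. Without the 3 libraries with high mt- shares it was 26, of which all 8 named above were part, beside 2.81% of all genes, and the median log2 fold change was -0.22. Over all fits that left out 1 mouse the median stayed between -0.28 and -0.21. With a score of smooth muscle, epithelium, or B and plasma cell markers as a covariate, 0 members were called and the medians were -0.17, -0.17, and -0.16. These fits called 0.0, 0.0391, and 0.189% of all genes lower, so that few or no genes of any kind passed, and 31, 28, and 25 members were lower at an unadjusted p under 0.05, beside 11.1, 6.17, and 7.71% of all genes.

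At 5% RPS, 0 members passed edgeR's test in either direction, beside 0.15% of all genes that were lower, while DESeq2's Wald test called 8, beside 1.11% of the genes it fitted. The median log2 fold change was -0.20, and 33 members were lower at an unadjusted p under 0.05, beside 6.54% of all genes. At 2% RPS, 0 members were called by edgeR, beside 0.0% of all genes, and 0 by DESeq2, beside 0.0324% of the genes it fitted that were lower. The median was -0.23, and 35 members were lower at an unadjusted p under 0.05, beside 3.19% of all genes. Members in which every RPS mouse lay below every 0% RPS mouse numbered 17 at 5% RPS and 5 at 2% RPS, beside 2.04 and 0.671% of all genes. The 3 comparisons share the 0% RPS mice. Without the 3 libraries the medians were -0.14 at both 5 and 2% RPS, and 30 and 21 members were lower at an unadjusted p under 0.05, beside 7.88 and 3.03% of all genes.

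Between the RPS diets little was seen. For 10% against 5% RPS the median was -0.03, and 0 members passed by edgeR or DESeq2 or had an unadjusted p under 0.05, beside 0.0% of all genes called by edgeR and 1.15% lower at an unadjusted p under 0.05. For 10% against 2% RPS the median was -0.02, 0 members were called by edgeR, and 1 was lower at an unadjusted p under 0.05, beside 0.0 and 2.31% of all genes. A linear fit on the RPS dose called 2 members lower, Sdha and Uqcrb, a ubiquinone-binding protein of complex III named here after its values were seen, beside 0.73% of all genes. Sdha fell by 0.02 per percentage point of RPS on the log2 scale (SE 0.00596, edgeR adjusted p = 0.0484) and Uqcrb by 0.03 (SE 0.0082, edgeR adjusted p = 0.0488). Without the 3 libraries the trend called 24 members lower, beside 3.04% of all genes. Without 1 mouse the count was 0 in most fits, and it was 14 without 2% RPS mouse 3, 9 without 10% RPS mouse 4, and 4 without 2% RPS mouse 5, beside 1.92, 2.08, and 1.07% of all genes.

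The share of mt- counts showed no difference that passed the test. It was 10.2 ± 1.70% (SD, n = 5) at 0% RPS, 10.7 ± 1.93% at 2%, 11.3 ± 2.42% at 5%, and 9.68 ± 0.468% at 10%. Two-sided exact permutation tests against 0% RPS gave p = 0.627 at 2%, 0.476 at 5%, and 0.706 at 10% RPS, each 0.706 after adjustment over the 3 diets, where the smallest possible p is 0.00794. The difference at 10% RPS was -0.49 percentage points with all mice and 0.22 without 0% RPS mouse 5. Of the 13 mt- genes, 0 passed edgeR's test at any dose and 0 had an unadjusted p under 0.05. Their median log2 fold change was -0.23 at 10%, 0.03 at 5%, and 0.04 at 2% RPS, and the members' medians at the same doses were -0.25, -0.20, and -0.23. The mt- medians include 0% RPS mouse 5, in which mt-Co1 had 49673 CPM, against 28474 to 33183 CPM in its diet mates. The 10% RPS mice had 28741 to 32583 CPM of mt-Co1. Other mt- genes, mt-Nd3 and mt-Atp8, were lowest of their diet in 0% RPS mouse 5. At 10% RPS mt-Cytb, the complex III subunit encoded in the mitochondrion, had -0.38 with an SE of 0.215, and mt-Co1, the catalytic subunit of complex IV, -0.14 with an SE of 0.191. SEs of this size do not separate such values from 0.

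In the 3 libraries with high mt- shares the members did not move as a block. Ndufb1, a small complex I subunit, had 50.6 CPM in 0% RPS mouse 5, 27.5 CPM in 2% RPS mouse 3, and 33.9 CPM in 5% RPS mouse 4, which were 0.474, 0.264, and 0.315 times the mean of the other 4 mice of the same diet. Ndufa13, of the same complex, had 2.27, 1.57, and 1.75 times the mean of the others. Cox8a, a small complex IV subunit, had 809, 460, and 574 CPM in the same mice, or 2.96, 1.87, and 2.36 times the mean of the others. Ndufb1 and Ndufa13, both of complex I, thus stood apart in opposite directions in the same libraries. These genes were named after their values were seen. In all, 28 tested members were below all other mice of their diet in each of the 3 libraries and 8 were above, beside 17.3 and 12.8% of all genes. Those above were Ndufa13, Ndufb3, Cox5b, Cox6a1, Cox7a2l, Cox7c, Cox8a, and Atp5f1d, and those below included Ndufb4, Ndufc1, Uqcr10, Cox7a2, Atp5f1e, and Atp5mk.

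**Figure D5:**
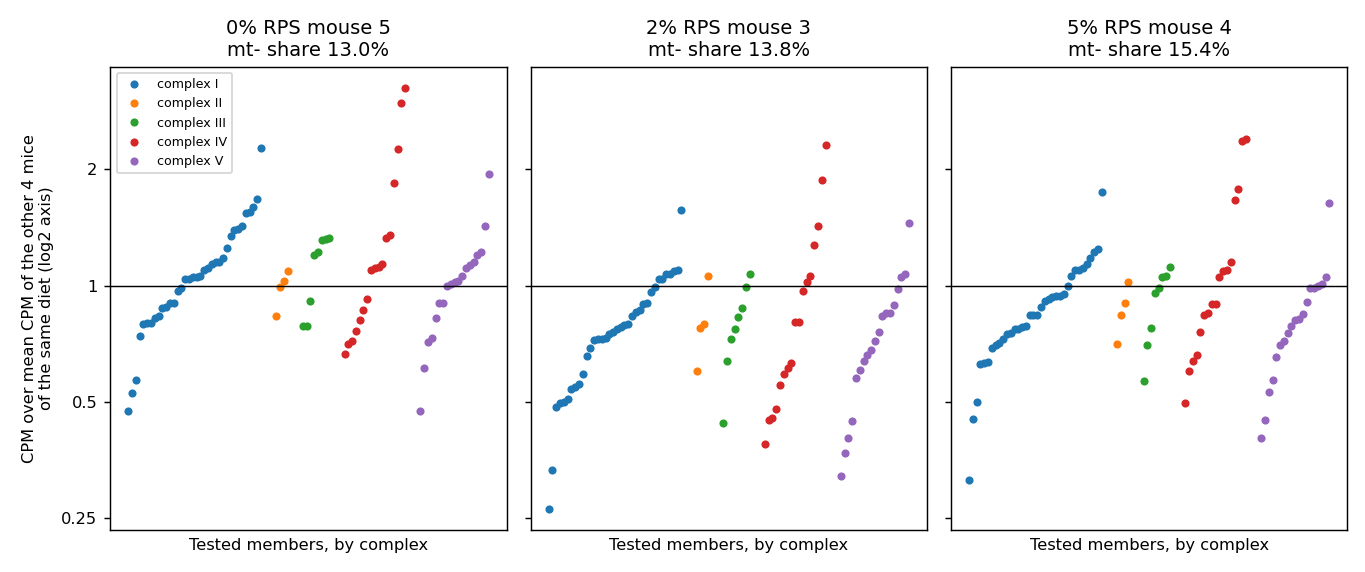
CPM of each tested member in 0% RPS mouse 5, 2% RPS mouse 3, and 5% RPS mouse 4, divided by the mean CPM of the other 4 mice of the same diet, on a log2 axis and ordered within each complex. In each library members of the same complex lie on both sides of 1, from 0.264 times for Ndufb1 to 3.25 times for Cox5b.

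Within diets, a fit on the log2 share of mt- counts called 36 members lower and 10 higher with a higher share, beside 18.3 and 15.5% of all genes. Without the 3 libraries it called 0 members and 0 genes in either direction, and 0 members had an unadjusted p under 0.05, where 1.22% of all genes were lower and 2.37% higher by that rule. The median slope of the members was -0.31 with all mice and -0.13 without the 3, with 67.9 and 73.8% of the slopes below 0, over a narrower range of shares. Across genes the slope rose with the GC content of the canonical transcript, with a Spearman rho of 0.57 over 15336 tested genes and 0.32 over the 84 members. The points share the same 20 libraries, and genes are not independent replicates. Nuclear members and mt- genes are counted in one total, so a higher mt- share by itself lowers the others before scaling. With the mt- genes left out of the totals and the fit, 33 members were called lower and 10 higher, with a median slope of -0.25, beside 16.2 and 17.7% of all genes called lower and higher. The part of RNA quality or library preparation in these values was not tested.

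Other mitochondrial genes gave the context, from lists chosen by function, to be read beside the 1.14% of all genes called lower at 10% RPS and the 9.75% lower at an unadjusted p under 0.05. Of 19 tested genes of the TCA cycle and pyruvate dehydrogenase, 4 fell at 10% RPS, 16 were lower at an unadjusted p under 0.05, and the median log2 fold change was -0.23. Idh3a, Idh3b, and Idh3g, the subunits of the NAD-dependent isocitrate dehydrogenase, which makes NADH for complex I, had -0.36, -0.28, and -0.28, and Dlst of the oxoglutarate dehydrogenase had -0.35. Mitochondrial ribosomal proteins had 3 of 77 lower (Mrpl35, Mrpl55, and Mrps2) and a median of -0.20, mitochondrial import 2 of 24 (Timm10 and Timm44) and -0.15, and assembly factors of the complexes 1 of 51 (Coa7) and -0.10. At an unadjusted p under 0.05, 27 of the ribosomal proteins, 9 of the import genes, and 9 of the assembly factors were lower, and 1 assembly factor was higher. Electron and nucleotide carriers had 0 of 18 called, 5 lower at an unadjusted p under 0.05, and a median of -0.13. Genes of mitochondrial biogenesis and mtDNA expression had 0 of 22 called, 2 lower and 2 higher at an unadjusted p under 0.05, and a median of 0.02. Lists outside the mitochondrion were also below 0, with 1 of 19 glycolysis genes lower (Gapdh) and a median of -0.27, 1 of 84 cytosolic ribosomal proteins (Rpl13a) and -0.11, and 0 of 20 proteasome core genes, 6 lower at an unadjusted p under 0.05, and -0.15. At an unadjusted p under 0.05, 10 of the glycolysis genes and 15 of the cytosolic ribosomal proteins were lower, and 1 of the latter was higher. None of these lists had a gene called higher.

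Of the cell type marker lists, 3 had 1 gene each that passed edgeR's test at 10% RPS, and the other lists had 0. Over the 15348 genes tested, edgeR called 110 higher at 10% RPS and 16 higher at 5% RPS. The share of all genes higher at an unadjusted p under 0.05 is not given here. Of the 7 smooth muscle markers, 1 was called higher at 10% RPS, Actg2, an actin of visceral muscle, by 1.28 on the log2 scale (SE 0.3, edgeR adjusted p = 0.0358). In all, 5 were higher at an unadjusted p under 0.05, with a median of 0.69. At 5% RPS 1 was called, 7 were higher at an unadjusted p under 0.05, and the median was 0.78. Their summed level ranged from 2620 to 6118 CPM at 0% RPS and from 4348 to 7238 CPM at 10%. The 9 epithelial markers had 0 called, 3 lower at an unadjusted p under 0.05, and a median of -0.15, with sums of 13800 to 18230 CPM at 0% RPS and 12350 to 16390 CPM at 10%. Goblet cell markers had 1 of 6 lower, Zg16 at -0.84 (SE 0.164, edgeR adjusted p = 0.0251), and a median of -0.54 at 10% RPS, where 5 were lower at an unadjusted p under 0.05, and 3 were at 5% RPS. Absorptive colonocyte markers had 1 of 7 higher, the chloride transporter Slc26a3 at 0.61 (SE 0.156, edgeR adjusted p = 0.0487), 3 lower and 2 higher at an unadjusted p under 0.05, and a median of -0.08. B and plasma cell markers had 0 of 5 called by edgeR, 0 at an unadjusted p under 0.05, and a median of 1.84, with sums of 55.4 to 446 CPM at 0% RPS and 270.5 to 491 CPM at 10%. Fibroblast markers had 0 of 5 called, 1 lower and 2 higher at an unadjusted p under 0.05, and a median of 0.28. Of the T cell, macrophage, enteric neuron and glia, endothelium, adipocyte, cycling cell, and striated muscle markers, 0 were called by edgeR, and 3 had an unadjusted p under 0.05. No marker of any list was at 0 in all mice. The part of cell composition in the lower level of the members was not tested beyond the covariate fits given above.

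Promoters of the members were searched for the letters bound by factors known to drive OXPHOS genes, from 250 bases before to 50 after the canonical start, on both strands. GCGCATGCG, the core of the NRF1 motif, was in 6.98% of the 86 members and 2.52% of 17681 protein-coding promoters. CCGGAAGT, an ETS motif read by GABP, was in 5.81 and 5.16%, AAGATGGCG, a YY1 motif, in 1.16 and 1.62%, and TCAAGGTCA, an ERR motif, in 1.16 and 0.379%. Matches are descriptions of letters and not sites. Of the 8 called members, Uqcrh held a match, an ETS motif after its start. Windows with a match wholly before the start are shown, and a link between the matches and the levels of the genes was not tested. Each is from GRCm39, reads 5′ to 3′ on the strand of the gene, and has the match, in either orientation, in capitals.
Ndufa13, complex I, NRF1, chr8:70355956-70356015, minus strand: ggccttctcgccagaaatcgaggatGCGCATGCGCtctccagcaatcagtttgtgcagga
Cox6a1, complex IV, NRF1, chr5:115487145-115487204, minus strand: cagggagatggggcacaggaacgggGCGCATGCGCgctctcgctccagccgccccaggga
Atp5mg, complex V, NRF1, chr9:44832248-44832305, minus strand: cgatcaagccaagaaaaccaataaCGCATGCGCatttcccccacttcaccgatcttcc
Uqcr11, complex III, ETS, chr10:80242689-80242746, minus strand: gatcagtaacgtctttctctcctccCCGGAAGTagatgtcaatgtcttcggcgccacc
Cox8a, complex IV, ETS, chr19:7194965-7195012, minus strand: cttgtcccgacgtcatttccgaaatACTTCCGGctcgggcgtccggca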

How the data were processed

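The authors deposited raw read counts per gene and mouse. Per their methods, reads from a stranded mRNA kit were filtered for quality and mapped to GRCm39 in the CLC Genomics Workbench. The annotation release, multi-mapping, and strand setting are not given in the sources used here. Diets came from the labels, where mouse numbers differ between diets and pair no mice. Names and coordinates came from GENCODE. Genes passing filterByExpr of edgeR 4.0.16 (minimum count 10, total 15) in R 4.3.3 numbered 15348. Counts were scaled by TMM, and a robust quasi-likelihood model was fitted to all 20 mice, with Benjamini-Hochberg adjustment over all genes. The fit was also run on counts simulated with known changes. The outcome is not given here and is no support for changes as small as those of the members. SDs, SEs, and p-values cover the spread between mice. DESeq2 1.42.0, other scalings, filters, and covariates, and leaving out each mouse were alternatives. The members, lists, and tests were chosen with earlier results of these data known. Named members were fixed core and tissue-restricted subunits, the lowest and highest log2 fold change of each complex at 10% RPS, and the 5 lowest p. Members outside this rule, among them the called Ndufs6, were named after their values were seen. The proximal and distal colon and the microbiome were not analysed here. An item that the naming rule covers is not reported here.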

Additional observations from a re-analysis of the deposited data

Results flagged for a closer look

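Among the shares of mt- counts, the summed complexes, and the named members, 160 groups of 5 mice were examined for a mouse far from the others. Of these, 22 stood apart (13.8%). For independent groups chance gives about 1 in 20. These groups share the same libraries, and some members were named for extreme values, so that rate cannot be set against the 22. In 0% RPS mouse 5, with a high mt- share, the high values were 119 CPM for Ndufa13, 185 CPM for Ndufb8, 560.0 CPM for Uqcrc1, 528 CPM for Cox5b, 64.0 CPM for Cox7a1, and 198 CPM for Atp5po. In 2% RPS mouse 3 Cox5b was high at 359 CPM, whereas Ndufb4 at 6.8 CPM, Sdhd at 253 CPM, Uqcr10 at 111 CPM, and Uqcrfs1 at 234 CPM were low. In 5% RPS mouse 4 Ndufa13 at 82.6 CPM and Cox5b at 364 CPM were high, and Ndufa9 at 124 CPM, Uqcr10 at 147 CPM, and Cox7a2 at 139 CPM were low. Outside these 3 libraries, the values far from the rest of their diet were Ndufa10 at 193 CPM in 2% RPS mouse 1, Ndufb8 at 118 CPM in 10% RPS mouse 4, Cox4i2 at 1.29 CPM in 5% RPS mouse 1, Cox5a at 279 CPM in 5% RPS mouse 5, Cox6b2 at 7.23 CPM in 5% RPS mouse 3, and Cox8b at 1.37 CPM in 0% RPS mouse 1. No summed complex and no share of mt- counts stood apart by this measure. The cause of these values was not tested.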

How the results depend on the processing

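Here the share of all fitted genes called lower follows each count in parentheses. The 8 members called lower at 10% RPS (1.14%) became 0 with a fold change of at least 1.5. They became 1 with library size alone (0.476%), 25 with DESeq2's Wald test (2.85%), and 4 without a low-count filter (0.664%). With only the 2 diets compared they became 0 (0.584%), and with mt- share as covariate 27 (3.26%). With the smooth muscle, epithelium, or B and plasma cell score they became 0 (0.0, 0.0391, and 0.189%). Without 1 mouse they became 0 to 21 (0.0713 to 2.15%). The share of all genes thus moved with the count of members. Among alternatives chosen after seeing the data, the called members became 26 without the 3 mice (2.81%) and 13 with a GC content offset (2.42%). At 5% RPS, DESeq2's Wald test called 8 (1.11%), and leaving out 1 mouse gave 0 to 2 (0.0 to 0.421%). The 2 were called without 2% RPS mouse 3 (0.266%). The 2 members of the trend (0.73%) became 0 with library size alone (0.274%), no low-count filter (0.356%), or mt- genes left out (0.677%). With the smooth muscle, epithelium, or B and plasma cell score they became 0 (0.0, 0.0, and 0.13%). They became 10 with DESeq2's Wald test (2.23%), 9 with the rank of the dose (2.19%), and 13 with mt- share as covariate (2.65%). Without the 3 mice they became 24 (3.04%), and without 1 mouse 0 to 14 (0.0 to 2.08%). In the comparisons of diets and the trend, calls of higher members were 0 in every fit run.

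With library size alone, the median of all genes at 10% RPS moved to 0.09, and those of the members to -0.16 overall and, for complexes I, II, III, and V, to -0.15, -0.17, -0.17, and -0.16. With the smooth muscle score the medians were -0.17 overall and -0.13, -0.17, and -0.15 for I, II, and V, with -0.11 at 5% and -0.16 at 2% RPS. With the epithelium score they were -0.17 overall and -0.14 and -0.17 for IV and V, and with the B and plasma cell score -0.16 overall and -0.15, -0.17, -0.17, and -0.16 for I, II, III, and V. Without the 3 mice the median at 2% RPS was -0.14, and without 1 mouse it lay between -0.27 and -0.14. The cause of these shifts was not tested. For 10, 5, or 2% against 0% RPS no median of a complex changed sign in any fit, whereas for 10% against 5% RPS, where they lay between -0.04 and -0.01, the medians of all 5 complexes turned positive with library size alone, and some did with a marker score or without 1 mouse.

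Of the 81 members that were negative at 10% RPS, 26 were above 0 in at least 1 fit, and 0 were called there. Named members that changed sign follow, of which Ndufb4 and the second Atp5po gene were positive with all mice. Leaving out 1 mouse gave -0.066 to 0.142 for Ndufb4, -0.529 to 0.168 for Cox5b, -0.258 to 0.0663 for Cox4i2, and -0.00416 to 0.432 for the second Atp5po gene. Without the 3 mice Ndufb4 became -0.0691 and Cox5b 0.165, and with the epithelium score -0.023 and 0.0959. With the smooth muscle score Ndufs1 became 0.0301, Uqcr10 0.0975, Uqcrc2 0.0361, Cox4i2 0.374, and Cox7a2 0.15, and with the B and plasma cell score Uqcr10 became 0.00136 and Cox7a2 0.00793. The mt- share at 10% RPS differed by 0.22 points without the 3 mice and by -0.77 to 0.22 without 1 mouse, at 2% RPS by -0.29 to 1.22, and at 5% RPS by 0.076, without 5% RPS mouse 4, to 1.82, without 0% RPS mouse 5. No paired analysis was possible because mouse numbers are not shared between diets.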
